A study of Mus musculus with 12 samples.

Results

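Pparg, which encodes the nuclear receptor PPARγ, stood at 10.9 and 14.1 times its level in cells with intact Crls1 in 2 of 3 Crls1-edited fibroblast clones, and at 2.06 times in the third. The lipase gene Lpl and the lipid droplet coat genes Plin2 and Plin4 were also higher in every library of every clone. Cebpa, the partner of Pparg in fat cell differentiation, was listed at 0 in all 12 libraries, and the adipocyte genes Fabp4 and Cd36 were near 0. The values below cover 10 genes of the 54392 in the table: Pparg, the transcription factor genes Cebpa, Cebpd, Ebf1 and Zfp423, and Lpl, Plin2, Plin4, Fabp4 and Cd36. They were selected on earlier results of these data, in which the clones were set against WT, with no stated threshold, so their levels are given as descriptions and carry no test.

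The libraries came from NIH-3T3, an immortalised mouse embryonic fibroblast line. Crls1 encodes cardiolipin synthase, which makes the mitochondrial phospholipid cardiolipin. Of the 4 groups, WT had intact Crls1, and KO1, KO2 and KO3 were lines made with Cas9 and a guide RNA against Crls1, each grown from 1 GFP-positive cell, so each edited group is 1 clone. Per the labels, the loss of the alleles was read from genomic DNA. All 4 groups, with 3 libraries each, shared a medium with 10% serum, 4.5 g/L glucose, pyruvate and 50 µg/ml uridine, and the labels name no adipogenic hormone mix. Whether WT was also sorted is not in the labels, nor whether the libraries of a group came from separate cultures, so the errors below measure only the spread between these libraries.

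Adipogenesis, the formation of fat cells from fibroblast-like precursors, runs as a cascade of transcription factors. C/EBPβ and C/EBPδ act early and switch on Pparg and Cebpa, whose products maintain each other's expression and activate the genes of the mature fat cell. PPARγ binds DNA with a retinoid X receptor, is activated by fatty acids and by the thiazolidinedione drugs, and controls genes for fatty acid uptake, binding and storage. NIH-3T3 cells are known as poor fat formers unless Pparg is supplied, unlike the related 3T3-L1 line.

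The libraries held 32929242 to 42211807 reads. Within WT, replicate 1 differed most: its median absolute log2 difference over tested genes was 0.22 and 0.24 from replicates 2 and 3, against 0.09 between those. The targeted gene Crls1 (ENSMUSG00000027357.16, chromosome 2, 132846666 to 132866785, plus strand, GRCm38) had mean normalized counts of 815 ± 68.4 (WT), 210.4 ± 2.67 (KO1), 349 ± 21.1 (KO2) and 381 ± 23.9 (KO3) (SD, n = 3), with no overlap between WT and any clone. Normalized counts are read counts divided by 1 size factor per library. All 9 fibroblast markers were detected, and their summed level ran from 835743 to 950284 normalized counts. Single markers differed within that sum. Col3a1 averaged 148 (WT), 7939 (KO1), 884 (KO2) and 3664 (KO3), whereas Col1a2 fell in every clone (log2 -0.37, -0.31 and -0.41). Of 8 markers of mature adipocytes, Lep and Pck1 were listed at 0 in every library, and the summed level was 42.3 to 54.9 in WT, 40.7 to 64.9 in KO1, 211 to 220.4 in KO2 and 26.3 to 44.7 in KO3. The higher sum in KO2 came from Retn, which encodes the secreted protein resistin. Retn averaged 20.2 (WT), 21.7 (KO1), 195 (KO2) and 13.1 (KO3) and rose in KO2 (log2 difference 3.21, limma adjusted p = 2.12e-06). Adrb3, the other of the 2 markers that were tested, averaged 16.6 (WT), 27.3 (KO1), 18.2 (KO2) and 3.90 (KO3). It fell in KO3 (log2 difference -1.62, limma adjusted p = 0.020), although its KO3 and WT libraries overlapped. The genes for adiponectin (Adipoq), perilipin 1 (Plin1), the droplet protein Cidec and adipsin (Cfd) did not pass the filter on low values, with highest libraries of 3.53, 10.6, 11.7 and 2.13 normalized counts. At these low levels Cidec had 0, 2.1 and 1.8 in WT, 2.1, 2.1 and 3.0 in KO1, 1.9, 0 and 0 in KO2, 8.3, 9.7 and 11.7 in KO3, so that KO3 lay above WT and KO1 did so narrowly (2.11 against 2.07), and Adipoq had 0 in every KO3 library against 3.5, 2.1 and 0.9 in WT.

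Upstream sequences are shown for Pparg because it had the largest difference of the 10 genes, and for Plin2 and Plin4 because they were the lipid droplet genes among them. RefSeq promoter windows on GRCm38.p6 matched 7 of the 10 genes, in 11 windows of which the 250 bases before the start are used here. The sequences read 5′ to 3′ on the strand of the gene, and capitals mark matches to the C/EBP motif TTGCNNAA on either strand.
Pparg, chr6:115421816-115422065, plus strand: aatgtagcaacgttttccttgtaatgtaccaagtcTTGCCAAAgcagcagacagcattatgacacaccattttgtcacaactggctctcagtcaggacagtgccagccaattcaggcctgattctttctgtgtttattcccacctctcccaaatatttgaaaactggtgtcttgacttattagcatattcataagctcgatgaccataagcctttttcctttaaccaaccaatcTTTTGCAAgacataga
Plin2, chr4:86670060-86670309, minus strand: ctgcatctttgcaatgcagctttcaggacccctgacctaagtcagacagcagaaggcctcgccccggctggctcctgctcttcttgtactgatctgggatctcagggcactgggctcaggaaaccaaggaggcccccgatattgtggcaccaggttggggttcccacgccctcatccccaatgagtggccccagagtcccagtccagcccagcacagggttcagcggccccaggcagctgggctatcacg
Plin4, chr17:56109783-56110032, minus strand: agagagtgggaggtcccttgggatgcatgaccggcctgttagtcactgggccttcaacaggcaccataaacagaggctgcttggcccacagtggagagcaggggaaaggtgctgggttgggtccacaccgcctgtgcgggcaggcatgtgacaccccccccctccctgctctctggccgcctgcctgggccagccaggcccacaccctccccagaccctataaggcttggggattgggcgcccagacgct
The Pparg stretch lies directly before the start of the transcript Pparg-201 at 115422066, which encodes the longer protein of 505 residues, known as PPARγ2 and named for its enrichment in fat. Its C/EBP matches begin 215 and 16 bases before that start. The motif occurs in 3142 of 32851 windows of the same 250 bases over all genes (9.56%). Among the 11 windows, the only other one with a match was a window of Zfp423. The other Pparg windows, near the starts of transcripts for the protein of 475 residues, held none, and had a G+C content of 82.4% and 63.6% against 40.8% in the window shown. Of their 250 bases, 193 and 57 lay in annotated Pparg exons, against 0 in the window shown, so they are partly transcribed sequence. The PPAR with RXR motif, a pair of AGGTCA repeats with 1 base between them, was searched on both strands and occurs in 11 of the 32851 windows (0.0335%) and in none of the 11 windows of these genes. A match in letters is a description and not a measured binding site. The deposited values are per gene, so the Pparg starts cannot be told apart in the expression values that follow.

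Pparg (chromosome 6, 115360951 to 115490399, plus strand, GRCm38; ENSMUSG00000000440.12) had normalized counts of 41.2, 34.2 and 40.6 in WT, 420.6, 424.3 and 420.0 in KO1, 76.5, 73.8 and 88.8 in KO2, 537.0, 557.2 and 546.6 in KO3. The groups did not overlap anywhere, with KO3 above KO1, KO1 far above KO2, and KO2 above WT. The means were 38.7 ± 3.90 (WT), 422 ± 2.29 (KO1), 79.7 ± 8.0 (KO2) and 547 ± 10.1 (KO3) (SD over 3 libraries), or 10.9, 2.06 and 14.1 times WT. On the log2(normalized count + 1) scale, the clones differed from WT by 3.42, 1.03 and 3.79 in KO1, KO2 and KO3, each with a standard error (SE) of 0.11 from the limma fit of all 4 groups. Between the clones, KO3 stood 0.37 above KO1 and 2.77 above KO2. For Pparg the authors' deposited table holds log2 fold changes of 3.43, 1.01 and 3.81. Pparg was a weakly expressed gene in WT. Per kilobase of transcript it stood at 21.2 (WT), 231 (KO1), 43.6 (KO2) and 299.5 (KO3) normalized counts, above 14.2%, 36.3%, 16.7% and 42.5% of tested genes, respectively. In these bulk libraries a larger share of cells with Pparg transcript and more transcript per cell cannot be told apart.

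The C/EBP genes did not follow that order. Cebpd, which encodes an early activator of Pparg, had 127.0, 242.3 and 238.4 in WT, 269.7, 276.5 and 285.3 in KO1, 397.4, 312.4 and 216.3 in KO2, 158.6, 192.2 and 240.8 in KO3 (chromosome 16, 15887286 to 15891031, plus strand). All KO1 libraries lay above WT, whereas KO2 and KO3 overlapped with WT. The log2 differences were 0.51, 0.62 and -0.00017 (SE 0.26), and they rested in part on the low WT replicate 1, without which they were 0.20 in KO1, 0.32 in KO2 and -0.31 in KO3. Cebpd shares 562 of its 3746 exon bases with Spidr on the other strand, and the strandedness of the counting is not given. Cebpa (chromosome 7, 35119293 to 35121928, plus strand) was listed at 0 in every library. A count of 0 allows up to 3 reads in the 439581377 of all 12 libraries, whereas Pparg had 113 reads in the 110704020 of WT. That limit covers counting error only and rests on estimates that may have been rounded to whole reads.

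Of the precursor factors, Ebf1 was expressed and Zfp423 was not detectable beyond single reads. Ebf1, an early B-cell factor that also acts upstream of Pparg in precursor cells, had 1286.6, 1040.6 and 1091.0 in WT, 1374.2, 1318.1 and 1400.7 in KO1, 1757.7, 1705.7 and 1643.1 in KO2, 1525.9, 1632.1 and 1516.1 in KO3 (chromosome 11, 44617317 to 45008091, plus strand). Every clone library lay above every WT library, and the order KO2 above KO3 above KO1 differed from that of Pparg. The log2 differences were 0.27, 0.58 and 0.46 (SE 0.07). Zfp423, a zinc finger factor known to commit precursors to the fat lineage, had 0 (WT), 1 (KO1), 3 (KO2) and 0 (KO3) reads (chromosome 8, 87661810 to 87959595, minus strand).

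**Figure D1:**
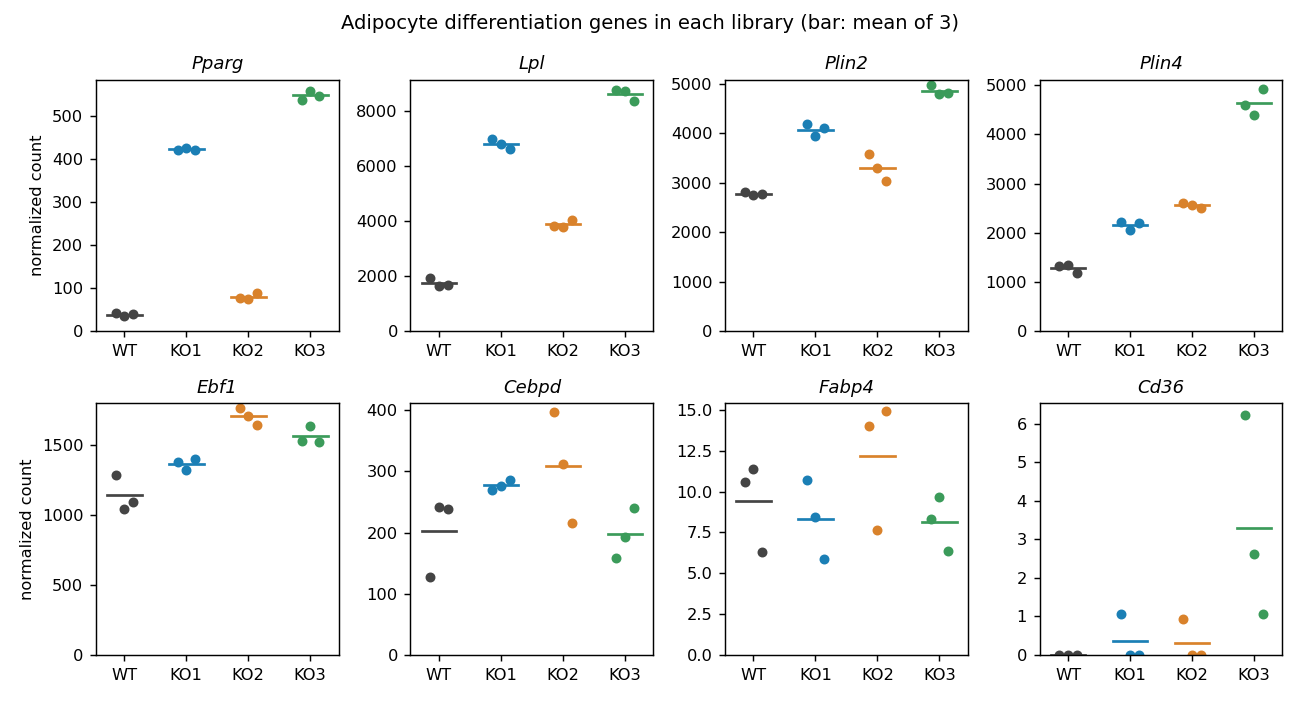
Normalized counts of 8 of the 10 genes in each of the 12 libraries (vertical axes, each starting at 0), with points for libraries and bars for the mean of 3. Pparg, Lpl, Plin2, Plin4 and Ebf1 have no overlap between WT and any clone, whereas Fabp4 overlaps throughout; Cebpa, at 0 in every library, and Zfp423, with 4 reads in all, are not drawn.

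Lpl encodes lipoprotein lipase, a secreted enzyme that frees fatty acids from circulating triglyceride and a known PPARγ target. Its normalized counts were 1928.7, 1631.8 and 1692.5 in WT, 7004.8, 6802.9 and 6616.0 in KO1, 3840.1, 3786.2 and 4046.7 in KO2, 8788.4, 8721.1 and 8366.7 in KO3 (chromosome 8, 68880491 to 68907448, plus strand). The 4 groups were separate, in the order KO3, KO1, KO2 and WT that Pparg also had. The means were 1751 ± 157 (WT), 6808 ± 194 (KO1), 3891 ± 138 (KO2) and 8625 ± 227 (KO3), with log2 differences of 1.96, 1.15 and 2.30 (SE 0.06). Per kilobase, Lpl moved from above 52.5% of tested genes in WT to above 87.1% in KO1, 76.0% in KO2 and 89.7% in KO3. Macrophages also express Lpl, and all 7 macrophage markers passed the filter on low values. Their summed level was 1809 to 2035 normalized counts in WT, 1998 to 2157 in KO1, 1466 to 1504 in KO2 and 1035 to 1256 in KO3. The sum does not stand for every marker. Csf1r averaged 531 (WT), 102 (KO1), 141 (KO2) and 62.3 (KO3), with log2 differences of -2.42, -1.91 and -3.07. Cd68 averaged 58.1 (WT), 61.4 (KO1), 53.6 (KO2) and 53.7 (KO3), and every clone overlapped with WT. The part of macrophages in the Lpl levels was not tested.

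Among the 10 genes, the other genes of fatty acid handling, Fabp4 and Cd36, were scarcely detected. Fabp4 encodes the adipocyte fatty acid binding protein, one of the most abundant proteins of mature fat cells. It had 10.6, 11.4 and 6.3 in WT, 10.7, 8.4 and 5.9 in KO1, 14, 7.7 and 14.9 in KO2, 8.3, 9.7 and 6.4 in KO3 (chromosome 3, 10204088 to 10208576, minus strand). Every clone overlapped with WT, and the log2 differences were -0.15, 0.33 and -0.17 (SE 0.36). Only 116 reads fell on the gene in all 12 libraries, so a small difference was not detectable at this depth. A rise as large as that of Pparg in KO1 and KO3 (3.42 and 3.79) was not seen. Cd36, a fatty acid transporter of the cell surface, had 0 (WT), 1 (KO1), 1 (KO2) and 10 (KO3) reads (chromosome 5, 17781690 to 17888801, minus strand). The KO3 libraries held 6.2, 2.6 and 1.1 normalized counts. With WT set to a floor of 3 reads over the group, the ratio of KO3 to WT was 3.28. That ratio leaves out the counting error of the 10 KO3 reads, so it is not a lower limit. The authors' deposited log2 fold change for Cd36 in KO3 was 0.31 with an SE of 0.76.

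Plin2 and Plin4 encode perilipins, proteins that coat lipid droplets. Plin2, the perilipin found in most cell types, had 2806.0, 2746.9 and 2774.5 in WT, 4191.1, 3939.7 and 4099.9 in KO1, 3577.9, 3304.1 and 3034.8 in KO2, 4974.7, 4802.4 and 4826.3 in KO3 (chromosome 4, 86648386 to 86670060, minus strand). KO3 was again highest, then KO1, KO2 and WT, without overlap, although KO2 exceeded WT by little. The log2 differences were 0.55, 0.25 and 0.81 (SE 0.06), the smallest of the 3 lipid genes Lpl, Plin2 and Plin4. Plin4, a perilipin of fat and muscle, had 1331.3, 1340.8 and 1175.0 in WT, 2226.1, 2054.8 and 2189.6 in KO1, 2600.2, 2560.5 and 2512.6 in KO2, 4601.5, 4382.9 and 4921.1 in KO3 (chromosome 17, 56100591 to 56109803, minus strand). Here KO2 lay above KO1, the reverse of Pparg, Lpl and Plin2, and KO3 lay above both. The log2 differences were 0.75, 1.00 and 1.85 (SE 0.06). Per kilobase, Plin2 was the most abundant of the 10 genes in every group, at 1470.2 (WT), 2159 (KO1), 1751 (KO2) and 2578 (KO3), while Plin4 stood at 223 (WT), 375 (KO1), 444 (KO2) and 805 (KO3).

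**Figure D2:**
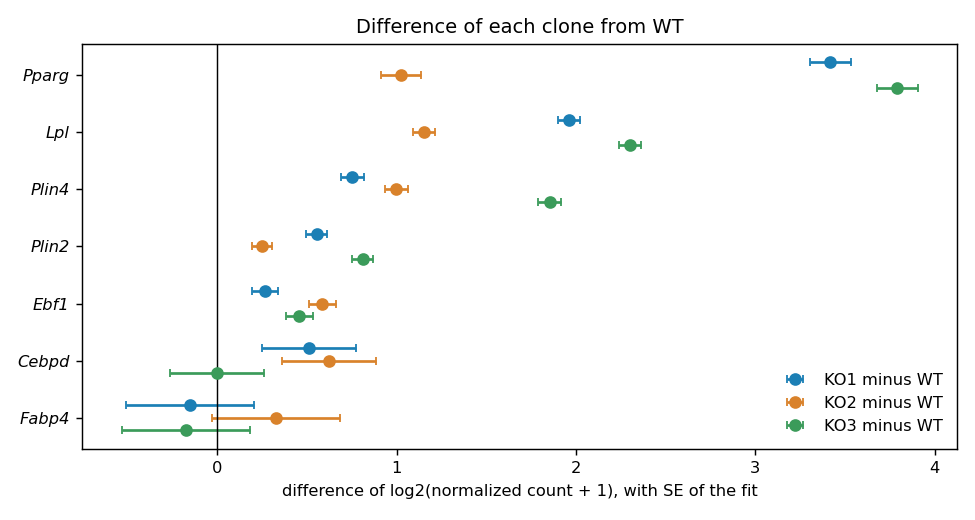
Difference of each clone from WT in log2(normalized count + 1) for the 7 genes that passed the filter on low values, with the SE of the limma fit as error bars. KO3 is the farthest right for Pparg, Lpl, Plin4 and Plin2, KO2 is the farthest right for Ebf1, and the Fabp4 and Cebpd bars are wide.

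Of the 10 genes, 7 passed the filter on low values (10 normalized counts or more in 3 or more libraries), which left 15073 genes for testing. In KO1, 6 of the 10 had every library above every WT library (Cebpd among them), in KO2 5 and in KO3 6, the last including Cd36, which did not pass the filter. None had every library below. Over all tested genes, 30.7% lay wholly above WT and 28.8% wholly below in KO1, 30.9% and 31.5% in KO2, and 28.7% and 29.3% in KO3. All clone libraries lay above all WT libraries for Pparg, Lpl, Plin2, Plin4 and Ebf1, and for 13.7% of the tested genes. The genes were named with these contrasts known and the 3 contrasts share the WT libraries, so nothing is read from those counts.

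The patterns closest to Pparg over the 12 libraries were those of Ucp2, Lurap1l, Tmem154, Cdsn and Apcdd1, among 10395 expressed candidates. Likeness was the root mean square difference of centred log2 values, and these genes differed from Pparg by 0.41, 0.41, 0.42, 0.43 and 0.44. Ucp2, which encodes a mitochondrial carrier protein, averaged 108 (WT), 917 (KO1), 229 (KO2) and 846 (KO3) normalized counts. Lpl was closest to Ugt1a7c (0.19) and the chemokine gene Cxcl5 (0.21), and Plin4 to Syne1 (0.09) and Fzd4 (0.15). Lpl itself differed from Pparg by 0.77.

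**Figure D3:**
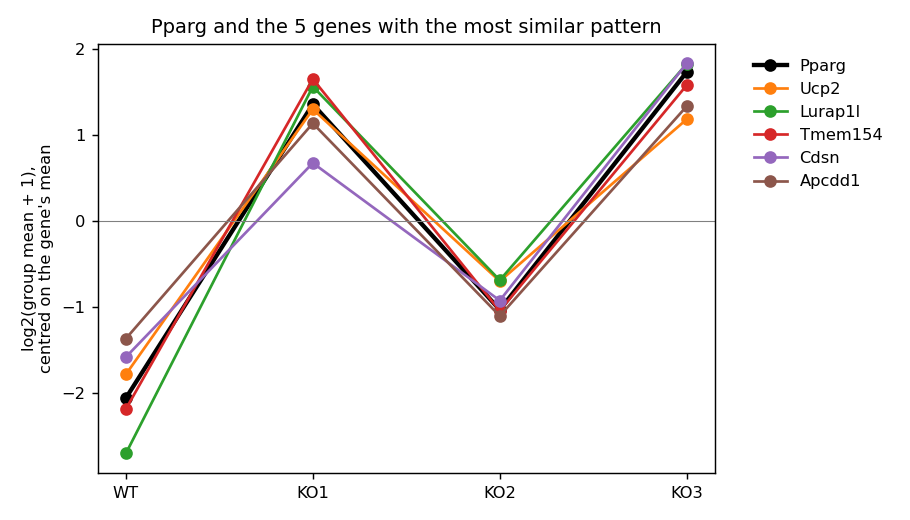
Group means on the log2(mean + 1) scale, centred on each gene's own mean, for Pparg and the 5 genes with the most similar pattern; lines join the groups of a gene for reading only. All 6 genes are low in WT and KO2 and high in KO1 and KO3.

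The other genes of the adipocyte programme were read from 8 lists, with limma tests over all 15073 genes and a Benjamini-Hochberg adjusted p under 0.05 as the threshold for writing that a gene rose or fell. The lists hold 166 genes, of which 118 were tested and 16 were at 0 in every library. Of the 118, 46 rose and 32 fell in KO1, 46 and 40 in KO2, and 45 and 33 in KO3. Over all tested genes, 26.9% rose and 25.4% fell in KO1, 29.9% and 30.5% in KO2, and 26.8% and 27.3% in KO3, so calls in both directions were frequent throughout. In all 3 clones alike, 30 list genes rose and 21 fell. The share of all tested genes called alike in all 3 clones was not computed, and the 3 contrasts share the WT libraries. Nothing is therefore read from these 2 counts.

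Among adipogenic transcription factors and coactivators, 20 of 22 were tested: 10 rose and 3 fell in KO1, 9 and 4 in KO2, and 10 and 2 in KO3. The list's median log2 differences were 0.23, 0.25 and 0.33, beside 0.018, 0.0040 and 0.0032 over all tested genes. Cebpb, the early C/EBP factor, had 311.6, 592.3 and 719.8 in WT, 1161.2, 1267.5 and 1280.7 in KO1, 1211.9, 1175.8 and 850.1 in KO2, 993.1, 1137.2 and 1372.2 in KO3, and every clone library lay above every WT library. It rose by 1.27, 1.06 and 1.18 (limma adjusted p = 9.91e-04, 0.0028 and 0.0016), although without WT replicate 1 the KO2 difference was 0.71. Klf4, a Krüppel-like factor that acts on Cebpb early in the cascade, averaged 1451 (WT), 4384 (KO1), 3574 (KO2) and 5961 (KO3) and rose by 1.60, 1.30 and 2.04 (limma adjusted p = 2.08e-10, 1.23e-09 and 2.39e-11). Egr2, known as Krox20 and an early activator, averaged 52.1 (WT), 556 (KO1), 356 (KO2) and 452 (KO3) and rose by 3.40, 2.76 and 3.10. Ppargc1a, the PPARγ coactivator of mitochondrial and thermogenic genes, averaged 79.3 (WT), 669 (KO1), 529.8 (KO2) and 865 (KO3) and rose by 3.08, 2.75 and 3.45. In the opposite direction, Rxra, a retinoid X receptor that partners PPARγ, averaged 2193 (WT), 1384 (KO1), 1382 (KO2) and 1208 (KO3) and fell by 0.66, 0.66 and 0.86 on the log2 scale (limma adjusted p = 1.09e-05, 7.53e-06 and 9.11e-07).

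Several known inhibitors of adipogenesis rose in the same clones. Of 21 on the list, 19 were tested: 8 rose and 4 fell in KO1, 10 and 4 in KO2, and 10 and 5 in KO3, with medians of 0.11, 0.30 and 0.31. Dlk1, the preadipocyte factor Pref-1 that is normally lost as fat cells mature, had 1593 ± 137 (WT), 18373 ± 559 (KO1), 25883 ± 3513 (KO2) and 25458 ± 2749 (KO3) normalized counts (SD, n = 3). Its log2 differences of 3.53, 4.02 and 4.0 (limma adjusted p = 6.61e-11, 2.60e-11 and 1.96e-11) stood beside 3.42, 1.03 and 3.79 for Pparg, and every clone library lay above every WT library. Zfp521, a repressor of Ebf1 and Zfp423 action, averaged 917 (WT), 1750.0 (KO1), 1828 (KO2) and 1830.3 (KO3) and rose by 0.93, 1.00 and 0.99. Gata3, a GATA factor that represses Pparg, averaged 62.7 (WT), 173 (KO1), 195 (KO2) and 126 (KO3) and rose by 1.45, 1.62 and 0.98. Trib2, a pseudokinase that lowers C/EBP activity, averaged 6095 (WT), 1841 (KO1), 2922 (KO2) and 1207 (KO3) and fell instead (log2 -1.73, -1.06 and -2.33; limma adjusted p = 1.53e-10, 9.10e-09 and 1.01e-11). Sox9 and Ddit3 rose in each clone, by 1.03, 1.78 and 0.19 and by 1.10, 0.30 and 2.98, but the KO3 call of Sox9 was lost without WT replicate 3 (adjusted p = 0.079) and without KO3 replicate 3 (0.079), and the KO2 call of Ddit3 was lost in a fit of those 2 groups alone (0.060).

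**Figure D4:**
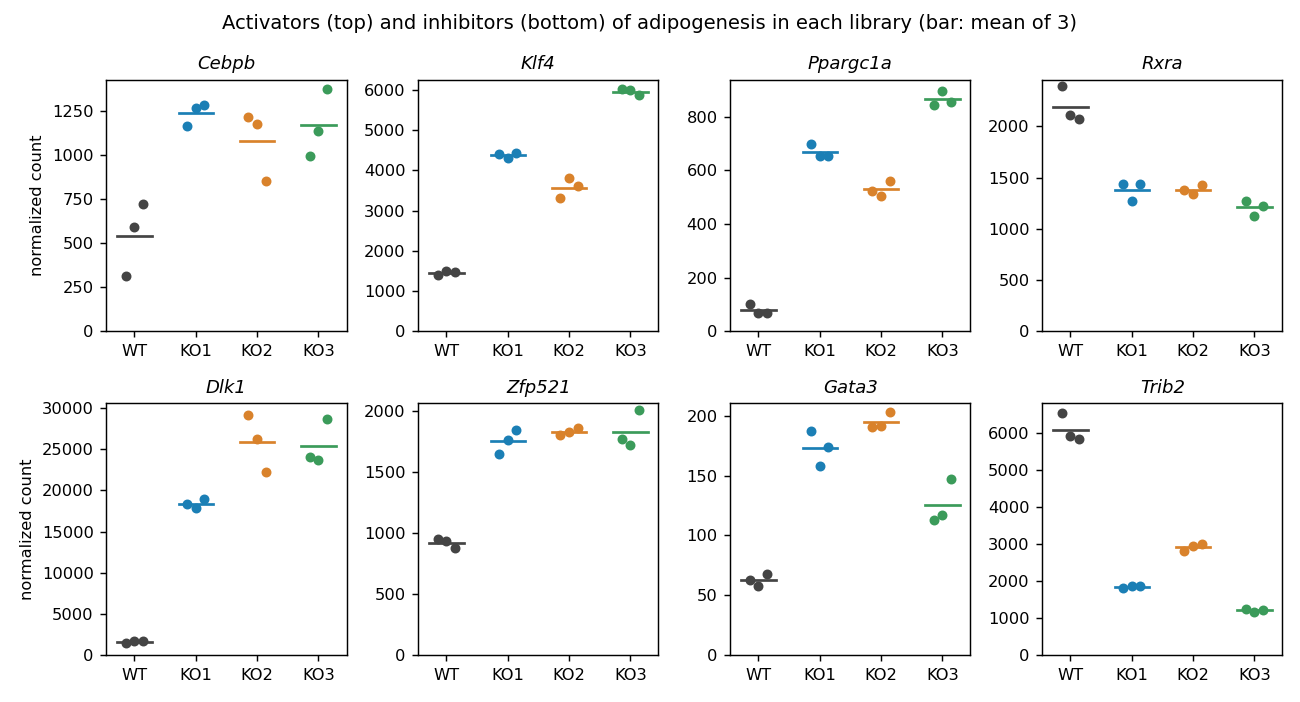
Normalized counts in each library for 4 activators (top row) and 4 inhibitors (bottom row) of adipogenesis, with bars for the mean of 3 and axes starting at 0. Cebpb, Klf4, Ppargc1a, Dlk1, Zfp521 and Gata3 lie above WT in every clone library, and Rxra and Trib2 lie below.

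PPARγ targets and genes of mature fat cells moved in both directions. Of 39, 25 were tested and 5 were at 0 in every library: 7 rose and 8 fell in KO1, 8 and 6 in KO2, and 8 and 6 in KO3, with medians of -0.05, 0.06 and -0.02. Pnpla2, which encodes the lipase that starts the breakdown of stored triglyceride, averaged 332 (WT), 739 (KO1), 619 (KO2) and 979 (KO3) and rose by 1.16, 0.90 and 1.56 (limma adjusted p = 7.10e-06, 4.38e-05 and 4.24e-07). Ech1, an enzyme of fatty acid oxidation, rose by 1.00, 1.41 and 0.96. Fasn, the fatty acid synthase, and Me1, malic enzyme, which supplies its NADPH, fell in every clone, with log2 differences of -0.35, -1.14 and -0.61 and of -0.81, -0.71 and -0.39. Pdk4, a kinase that restrains pyruvate oxidation, averaged 48.1 (WT), 1148 (KO1), 49.5 (KO2) and 334 (KO3); it rose in KO1 and KO3 (log2 4.57 and 2.79), and its difference in KO2 was 0.06 (limma adjusted p = 0.784). Agpat2, an enzyme of triglyceride and phospholipid synthesis, fell in KO1, where it averaged 19 normalized counts against 204 in WT (log2 -3.38, limma adjusted p = 1.10e-08).

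Lipid droplet proteins other than the 2 perilipins above numbered 21, with 11 tested and 4 at 0. KO1 had 6 that rose and 1 that fell, KO2 5 and 3, and KO3 5 and 2, with medians of 0.22, -0.0026 and 0.20. Besides Pnpla2, the hormone-sensitive lipase gene Lipe rose by 0.77, 0.83 and 0.45 and Rab18, a small GTPase of droplets, by 0.22, 0.20 and 0.20. Plin3, the ubiquitous perilipin, rose by 0.63 in KO2 and 0.40 in KO3, and differed by 0.14 in KO1 (limma adjusted p = 0.104). Ldah, a droplet hydrolase, fell with differences of -0.72, -0.45 and -0.25, and its KO3 call was lost under 13 other settings, with -0.14 without WT replicate 1 and -0.15 without KO3 replicate 3.

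Of 25 fatty acid uptake genes and partners of lipoprotein lipase, 17 were tested and 3 were at 0: 9 rose and 3 fell in KO1, 7 and 8 in KO2, and 6 and 5 in KO3, with medians of 0.26, -0.23 and 0.02. Sel1l, needed for lipoprotein lipase to leave the endoplasmic reticulum, rose by 0.52, 0.59 and 1.15 (limma adjusted p = 1.37e-05, 3.36e-06 and 9.16e-09). Vldlr, the receptor for triglyceride-rich lipoproteins, rose by 0.31, 1.23 and 1.94. Acsl1, which activates fatty acids, rose by 0.35, 0.68 and 0.33. Cav1, the caveolar coat protein, rose in KO1 and KO2 by 0.82 and 1.02, and differed by 0.15 in KO3 (limma adjusted p = 0.113). Scarb1, the scavenger receptor for high density lipoprotein, fell with differences of -0.56, -0.28 and -0.40, and the KO2 call was lost under quantile normalization (-0.16, adjusted p = 0.057).

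The families of the 10 genes held 22 other genes, of which 12 were tested and 3, Ppara, Rxrg and Plin5, were at 0 in every library. KO1 had 3 that rose and 4 that fell, KO2 4 and 7, and KO3 6 and 3, with medians of 0.02, -0.27 and 0.15. Ppard, the PPAR found in most tissues, did not pass the threshold in any clone, with log2 differences of -0.00065, 0.34 and 0.11 (limma adjusted p = 0.998, 0.059 and 0.549), although KO2 passed it with edgeR, DESeq2, quantile normalization, a replicate block or without WT replicate 1. Ebf3 rose beside Ebf1, by 0.73, 0.80 and 0.56 (limma adjusted p = 2.82e-06, 8.92e-07 and 2.41e-05). Lipg, the endothelial lipase related to Lpl, averaged 247 (WT), 44.6 (KO1), 99.6 (KO2) and 111 (KO3) and fell, with differences of -2.45, -1.30 and -1.15 against the higher Lpl in the same clones. Fabp5, the epidermal relative of Fabp4, fell in KO2 (-0.69, limma adjusted p = 3.16e-04). The other family members Ebf2, Ebf4, Fabp3, Fabp7, Cebpe, Lipc and Plin1 did not exceed 10.6 normalized counts in any library.

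Surface markers of adipose progenitors moved in both directions, with 14 of 18 tested: 6 rose and 7 fell in KO1, 5 and 8 in KO2, and 4 and 6 in KO3, with medians of -0.03, -0.30 and -0.01. Cd34, a sialomucin of progenitor cells, averaged 73.3 (WT), 2528 (KO1), 4425 (KO2) and 1854 (KO3) and rose by 5.09, 5.90 and 4.64 (limma adjusted p = 4.77e-14, 8.20e-15 and 1.43e-13). Ly6a, which encodes Sca-1, rose by 1.13, 2.23 and 1.85. Cd24a and Cd44 fell in all 3 clones, with differences of -0.43, -0.37 and -0.84 and of -0.72, -1.12 and -0.84. Pdgfra, a receptor that marks fibroblastic progenitors, rose in KO1 and KO2, by 0.37 and 1.85, and differed by 0.05 in KO3 (limma adjusted p = 0.602).

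Of 20 hormone and growth factor genes, 14 were tested: 4 rose and 4 fell in KO1, 5 and 5 in KO2, and 4 and 6 in KO3, with medians of 0.04, -0.06 and -0.06. Lifr, the receptor for leukaemia inhibitory factor, averaged 5029 (WT), 836 (KO1), 642 (KO2) and 365 (KO3) and fell, with differences of -2.59, -2.97 and -3.78 (limma adjusted p = 2.27e-10, 8.28e-11 and 9.62e-12). Fgf10, a growth factor of fat precursors, also fell (-3.45, -3.34 and -4.08), and Ghr, the growth hormone receptor, rose by 1.41, 1.30 and 1.20. Irs1, an adaptor of insulin signalling, fell in all 3 clones, with differences of -0.98, -0.23 and -1.99. Ptgfr, the receptor for the antiadipogenic prostaglandin F2α, rose by 3.51, 4.76 and 0.72.

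All 8 lists were also read in KO3 set directly against the other clones. Of the 118 genes tested, 31 were higher and 34 lower in KO3 than in KO1, and 34 were higher and 42 lower than in KO2. The adipogenic factors had 6 of 20 higher and 2 lower than in KO1, and 7 and 5 against KO2, while the inhibitors had 6 of 19 higher and 7 lower, and 6 and 6. The PPARγ target list had 5 of 25 higher and 3 lower than in KO1, and 8 and 8 against KO2, and the lipid droplet list had 5 of 11 and 2, and 3 and 3. For fatty acid uptake the counts were 3 of 17 higher and 5 lower, and 6 and 4. The families had 6 of 12 higher and 1 lower than in KO1, and 4 and 3 against KO2, and the progenitor markers 4 of 14 and 5, and 4 and 7. The hormone and growth factor genes had 0 of 14 higher and 10 lower than in KO1, and 0 higher and 11 lower than in KO2, with medians of -0.32 and -0.49. Over all tested genes, 20.3% were higher and 23.4% lower in KO3 than in KO1, and 26.1% were higher and 27.0% lower than in KO2.

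**Figure D5:**
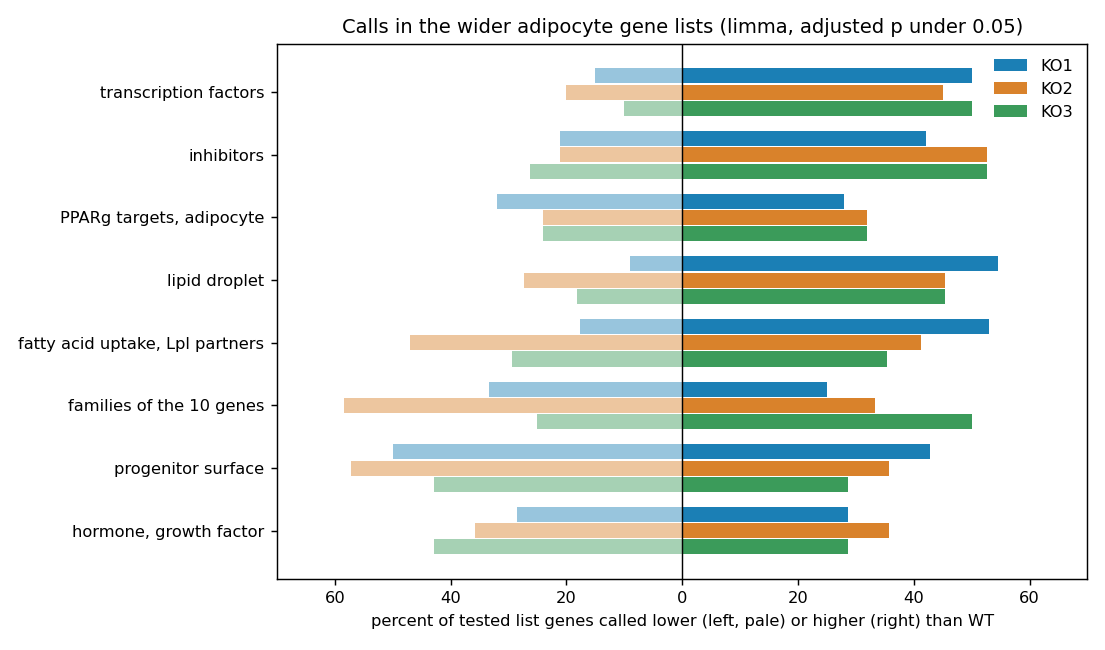
Percent of the tested genes of each of the 8 lists that were higher (right, dark) or lower (left, pale) than WT at a limma adjusted p under 0.05, for KO1, KO2 and KO3. Calls run in both directions in every list, with the PPARγ target list at 7 higher and 8 lower of 25 in KO1.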

How the data were processed

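Total RNA of 12 libraries was sequenced after removal of ribosomal RNA, with random hexamer priming, per the labels' protocols. GRCm38 (mm10), Salmon 0.14.1, DESeq2 1.24.0 and cutadapt appear in the submitters' processing notes, while their settings and the strandedness are not stated. The authors deposited a signal table of normalized counts (54392 genes), which gave whole reads divided by 1 size factor per library for 99.95% to 99.99% of values above 0, within 0.02. Zeros rest on estimates that Salmon may have given and that were then rounded. For each of 3 clones against WT, the authors deposited log2 fold changes with standard errors, test scores, p-values and adjusted p-values. Symbols and coordinates came from GENCODE M21 on GRCm38 (54357 identifiers matched and 35 did not), and no column of another sample was present (0).

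The 15073 genes reaching 10 normalized counts in 3 or more libraries were fitted as log2(normalized count + 1) in R 4.3.3 with limma 3.58.1 (trend), all 4 groups in one fit. The two-sided p-values were adjusted over all genes by Benjamini-Hochberg, with 0.05 as threshold. Differences on this scale understate the change of weakly expressed genes. Levels per kilobase divide by the median length of a gene's protein-coding transcripts. The 10 genes and the wider lists were chosen with earlier results of these data known. From each wider list, the rule for naming took up to 4 genes called in 1 direction in all 3 clones and, per clone, up to 3 with the smallest adjusted p, besides the families of the 10 genes and the adipocyte markers. A gene that this rule takes is not reported here. Likeness was computed among genes passing the filter with a comparable mean, for members whose group means spanned at least 1 on the log2 scale, with predicted gene models left out. The alternatives were pseudocounts of 0.5 and 5, no filter and a minimum of 50, quantile normalization, fits of 2 groups, a replicate block, leaving out each library, the authors' tables, and edgeR 4.0.16 and DESeq2 1.42.0 on the recovered reads. The limma script was tested on simulated data.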

Additional observations from a re-analysis of the deposited data

Results flagged for a closer look

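Of the 118 list genes tested, 10 passed the limma threshold in opposite directions in 2 clones with a difference between those clones that passed it too, in 16 comparisons. The share of all tested genes that did so was not computed, so nothing is read from that count. The 10 genes were Acsl4, Angptl4, Clec11a, Gata2, Retsat and Slc27a4, and 4 genes that the naming rule covers, given here with their values in 6 comparisons. Cebpg, which encodes a C/EBP partner protein, rose in KO3 (log2 0.84) and fell in KO2 (-0.35), and KO3 exceeded KO2 by 1.19 (limma adjusted p = 3.77e-07). F3, the gene for tissue factor and a marker of a progenitor subset, was lower in KO2 than in KO1 by a difference of -1.62 (limma adjusted p = 4.75e-09) and higher in KO3 than in KO2 by 1.74 (limma adjusted p = 1.48e-09). Fitm2, which encodes a protein of lipid droplet budding, differed by -0.57 between KO2 and KO1 (limma adjusted p = 1.96e-06) and by 0.81 between KO3 and KO2 (limma adjusted p = 5.43e-08). Scarb2, a lysosomal membrane protein gene, differed by 0.51 between KO3 and KO2 (limma adjusted p = 2.32e-06).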

How the results depend on the processing

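All 143 values of the 7 comparison counts under the other settings stayed within 1.5 times of those reported. Of 156 pairs of a named list gene and a clone, 140 were called, and none of these had a value of opposite sign (0 pairs) under any setting, while the call was lost under at least 1 setting for 5. Of the 16 pairs not called, 7 had a value of opposite sign, and 1 of these, Fabp5 in KO3, was called lower without WT replicate 1 (-0.17, limma adjusted p = 0.017) against a difference of 0.02 and a range of -0.17 to 0.14 over the single libraries left out. A call in the same direction was gained for 6 pairs (Cav1, Hsd17b11 and Pdgfra in KO3, Fabp5 and Plin3 in KO1, and Ppard in KO2), for Plin3 with quantile normalization and for the others without WT replicate 1. Quantile normalization moved the Pparg differences to 3.20, 0.82 and 3.65 in KO1, KO2 and KO3, the Plin2 differences to 0.63, 0.35 and 0.85, and the Fabp4 difference in KO1 to -0.91. The cause of these shifts with quantile normalization was not tested. A pseudocount of 5, which by its arithmetic shrinks the differences of weakly expressed genes, gave 3.29 and 3.66 for Pparg in KO1 and KO3. Without 1 library at a time the Pparg differences ran from 3.33 to 3.47 in KO1, 0.94 to 1.08 in KO2 and 3.71 to 3.84 in KO3, while Fabp4 in KO1 ran from -0.39 to 0.05. Libraries with the same replicate number deviated from their group means with correlations of -0.22 to 0.12 over 18 pairs, 2 of them over 0.1. Pairing by number was thus not seen, but such correlations cannot exclude it. With the replicate block, the list genes called numbered 76 in KO1, 86 in KO2 and 76 in KO3 against 78, 86 and 78 without it, and 60, 65 and 72 against 62, 65 and 76 between the clones. Depth limits Fabp4, Cd36, Zfp423 and Cebpa, which held at most 116 reads each over all libraries.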

Other observations

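Markers of lineages other than fat, fixed as lists to check the cell type, also differed between clones, and the genes named here were chosen after their values were seen. The summed level of 6 endothelial markers was 23.5 to 36.1 normalized counts in WT, 189 to 240.6 in KO1, 522 to 606 in KO2 and 29.0 to 85.2 in KO3. In KO2 most of it was Tie1, and in KO1 Cdh5, both genes of the vessel lining. The summed level of 6 skeletal muscle markers was 77.6 to 106 in WT, 1504 to 1619 in KO1, 209 to 260.3 in KO2 and 149 to 158 in KO3, with Myf5, a muscle determination factor, making most of the KO1 level and Myod1 listed at 0 in every library. The summed level of the 5 osteoblast markers, of which 2 were tested, went the other way. It was 2276 to 2595 in WT, 1626 to 2072 in KO1, 1315 to 1571 in KO2 and 1577 to 1830 in KO3. Alpl, a tested marker, averaged 7.39 (WT), 40.4 (KO1), 0 (KO2) and 2.55 (KO3). It rose in KO1 (log2 2.27, limma adjusted p = 0.0048) and fell in KO2 and KO3. The KO1 sum thus does not stand for every marker. The 5 chondrocyte markers, of which 2 were tested, summed to 1464 to 1724 in WT, 641 to 726 in KO1 and 453 to 636 in KO3. In KO2 their sum overlapped with WT, at 1498 to 1761. Acan, a tested marker, averaged 8.51 (WT), 14.2 (KO1), 12.2 (KO2) and 2.32 (KO3). Every KO1 library of Acan lay above WT (limma adjusted p = 0.172), so this KO1 sum does not stand for every marker either.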
